A study of Mus musculus with 4 samples.

Results

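The 39 genes described here are 31 immediate early genes and 8 heat shock genes of the mouse. They were chosen by name, with earlier results of these data known, and each was found among the 31053 genes of all 4 count tables. The tables held single-cell RNA counts from subcutaneous MycCaP tumor grafts and from the stromal and vascular cells of subcutaneous adipose tissue (SAT) of chow-fed FVB mice (genotype written as VFB in the labels), with 1 library for each of 4 groups: tumor control, tumor D-CAN, SAT control and SAT D-CAN. MycCaP is a mouse prostate cancer line from Hi-Myc mice, which carry a Myc transgene under a probasin promoter, and the grafts in both tumor groups came from this 1 line. Controls received PBS, and D-CAN is a peptide made to home to and kill adipose stromal cells (ASC). How many mice each library held, their age and the digestion of each tissue are not given in the sources used here, and all 4 libraries went through dead cell and red cell removal.

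Immediate early genes are transcribed within minutes of a growth factor, stretch, cytokine or injury signal, without new protein synthesis, and most encode transcription factors or short-lived inhibitors of the same signals. Heat shock genes encode chaperones that hold or refold proteins, and those under heat shock factor control are induced by heat and other stress. Enzymatic dissociation of tissue is a known trigger of both programs, and RNA present in the tissue and RNA made on the way to capture cannot be told apart in these libraries.

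The libraries held 2830, 1525, 2851 and 1922 cells (tumor control, tumor D-CAN, SAT control and SAT D-CAN in turn), with 6667064 to 17996284 UMIs (unique molecules counted) in all. Any 2 libraries shared at most 2 cell barcodes. Cells with at least 200 genes were put into classes by markers (at least 3 distinct markers of 1 class, and no other class above 0.75 of its marker share), which took between 71.2% and 91.9% of the kept cells. The 10 genes that most set a class above the others held between 1 (SAT endothelial cells) and 6 (tumor macrophages) of its own markers. None of them was a marker of another class in the gate, but there were limits. The cancer class was at under 1 CPM for Cldn7, Krt18, Epcam and Cdh1, with 6 of its 10 markers at 10 CPM or more. Red cell markers summed to 2126 and 2748 CPM in SAT endothelial cells and to 1295 and 37.6 CPM in those of the tumors. In tumor mural cells fibroblast markers summed to 10234 and 16004 CPM, beside 13466 and 14195 CPM for mural markers. The SAT macrophage class also led with the neutrophil genes Camp, S100a9, S100a8 and Ngp, so it is called macrophage-gated, and its summed neutrophil markers were 12843 and 21689 CPM against 2341 and 614 CPM in the tumors. Levels are given as CPM, the UMIs of a gene per 1000000 UMIs of nuclear genes, with the control library first and the D-CAN library second, and intervals cover counting error only.

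Summed over a whole library, the 31 immediate early genes took 42.7 and 44.9 of every 10000 nuclear UMIs in the tumors, against 122 and 148 in SAT. The 8 heat shock genes took 76.6 and 79.2 in the tumors and 79.8 and 84.7 in SAT. The library sums thus stood far apart for the first program and close together for the second, but they mix different cell classes. Within endothelial cells the heat shock sum was 72.2 and 70.8 in the tumors against 97.8 and 125 in SAT. In mural cells it was 63.2 and 60.4 against 88.6 and 99.4, and in fibroblasts 44.3 and 47.1 against 49.9 and 63.7. Among classes with at least 20 cells in a library, the immediate early sum was highest in SAT mural cells (182 and 248 per 10000) and SAT endothelial cells (156 and 232). It was lowest in the cancer cells (39.4 and 42.4) and tumor mural cells (40.8 and 46.3). No tumor class of either library reached the lowest SAT class, the fibroblasts of the control library.

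**Figure D1:**
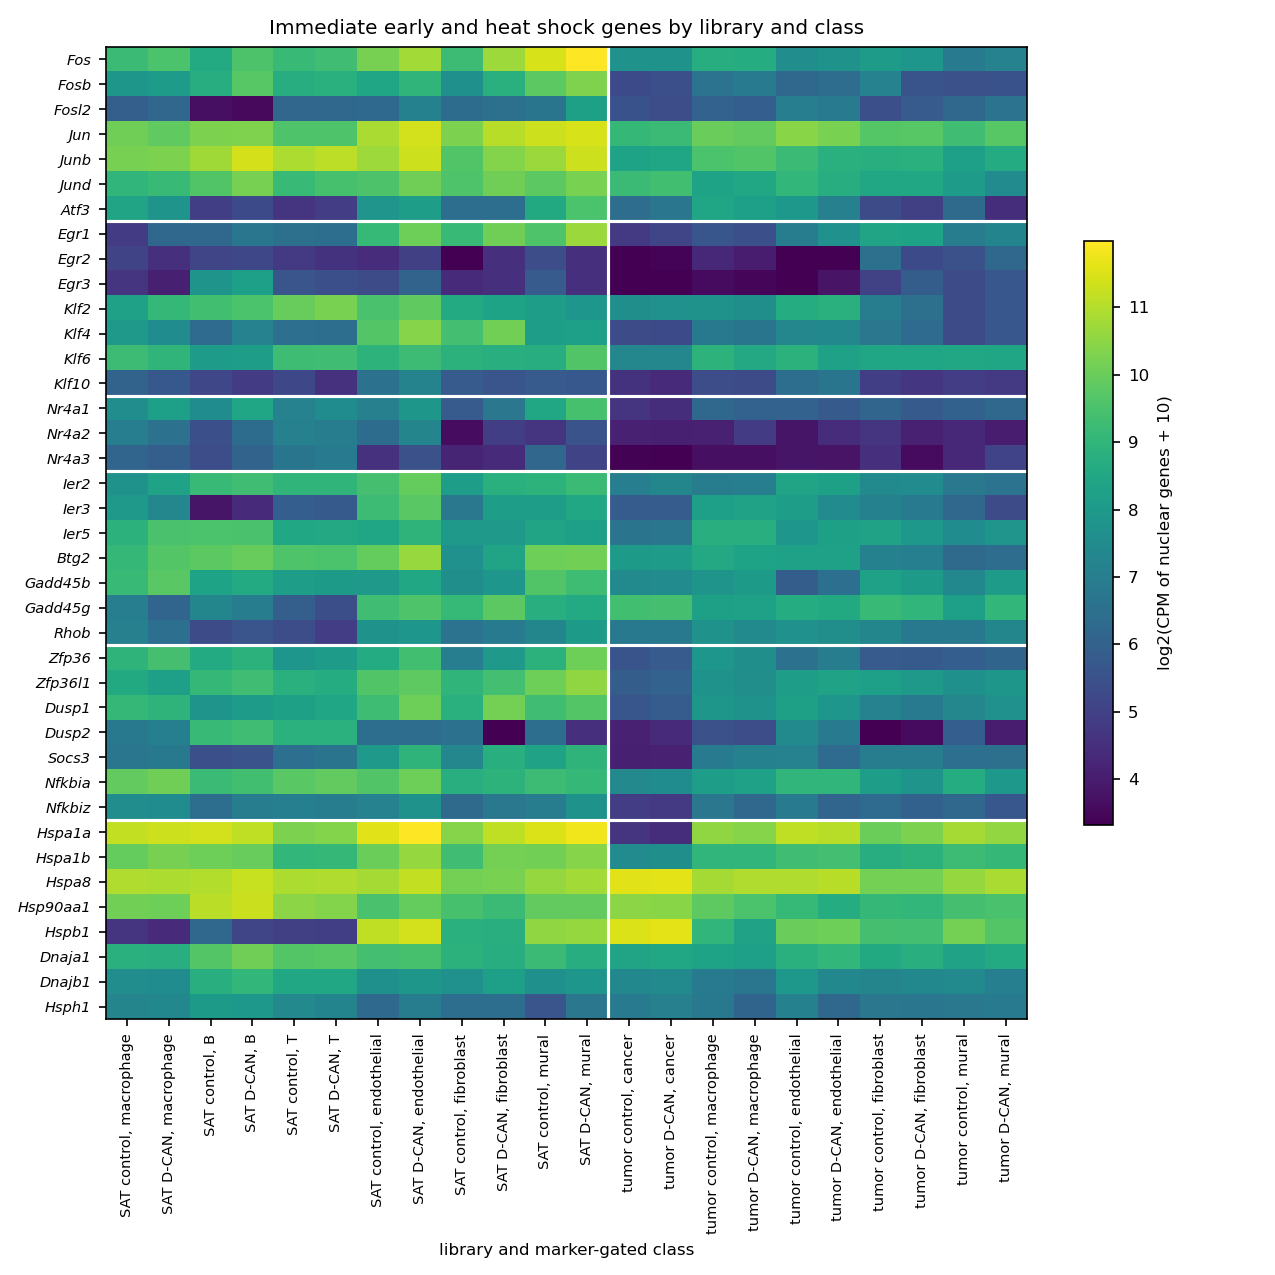
Level of each of the 39 genes (rows, grouped by role) in each library and marker-gated class (columns), as log2 of CPM of nuclear genes plus 10. The SAT columns at the left are brighter for most immediate early genes, and Hspa1a is dark in the 2 cancer columns only.

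Within SAT, each class was set against the mean of the other SAT classes in 1 edgeR fit over 22 library and class profiles. The p-values rest on how far class differences varied between the control and D-CAN libraries, with each gene's own spread drawn toward the trend over all genes (12767 genes tested, all 39 members among them). Mural cells, the contractile cells of vessel walls, had the highest Fos of all classes at 2821 and 4030.5 CPM, against at most 1765 CPM in any other SAT profile. Fos encodes the dimer partner of Jun in the AP-1 transcription factor, and its log2 difference in mural cells was 1.58 ± 0.15 (SE), adjusted p = 7.26e-10. Atf3, a stress-induced repressor of the same protein family, was at 371 and 728 CPM (2.40 ± 0.23 (SE), adjusted p = 6.08e-10). Egr1, a zinc finger factor induced by serum and stretch, was at 757 and 1639 CPM (2.20 ± 0.18 (SE), adjusted p = 1.90e-11). In all, 14 members were higher in SAT mural cells (all genes: 11.5% higher) and 9 lower (all genes: 6.48%). Those higher included 5 of the 7 AP-1 and ATF3 genes, while 5 of the 8 heat shock genes were lower, and the exception that was higher was Hspb1 (3.37).

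SAT endothelial cells had 19 members higher (all genes: 21.6%) and 6 lower (7.61%). Hspb1, a small heat shock protein that binds unfolded clients and actin, stood at 2239.9 and 2674 CPM in them and between 10.5 and 65.5 CPM in the 3 blood cell classes of SAT (4.52 ± 0.16 (SE), adjusted p = 7.63e-21). Ier3, an inhibitor of apoptosis, was at 596 and 854 CPM (2.94 ± 0.18 (SE), adjusted p = 7.33e-15). Klf4, a zinc finger factor induced by blood flow, was at 795 and 1341 CPM (2.14 ± 0.15 (SE), adjusted p = 1.20e-13). The 6 lower members were Dusp2, Nr4a3, Hsp90aa1, Hsph1, Gadd45b and Dnajb1, with log2 differences between -1.09 and -0.55. That of Dusp2 turned to 1.01 without the control SAT library.

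SAT fibroblasts went the other way for most members, with 8 higher (all genes: 18.6%) and 20 lower (8.33%). Gadd45g, a growth arrest gene, was at 553 and 886 CPM (2.09 ± 0.17 (SE), adjusted p = 1.46e-11), and Egr1 at 570.2 and 1088 CPM (2.06 ± 0.16 (SE), adjusted p = 5.02e-12). The orphan nuclear receptors Nr4a1, Nr4a2 and Nr4a3 were all among the lower members, at 45.5 and 97.3 CPM for Nr4a1 (-1.81 ± 0.20 (SE), adjusted p = 9.45e-09). Nr4a2 in the control fibroblasts rested on 1 UMI.

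In SAT B cells 18 members were higher (all genes: 19.4%) and 13 lower (15.7%). Egr3, induced by antigen receptor signals, stood at 214 and 283 CPM against at most 57.7 CPM in any other SAT profile (3.76 ± 0.19 (SE), adjusted p = 2.12e-16). Dusp2, a phosphatase of MAP kinases found in lymphocytes, was at 562 and 627 CPM (2.92 ± 0.25 (SE), adjusted p = 2.79e-11). Fosl2 was nearly missing from B cells at 2.70 and 1.76 CPM (-5.05 ± 0.38 (SE), adjusted p = 1.81e-12). The immediate early genes of B cells went in both directions, with 11 higher and 12 lower of 31, while 7 of the 8 heat shock genes were higher, led by Hsp90aa1, the inducible HSP90, at 2140.0 and 2483 CPM (1.54 ± 0.12 (SE), adjusted p = 7.63e-12).

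In SAT T cells 15 members were higher (all genes: 21.3%) and 15 lower (13.2%). Dusp2 was at 451 and 456 CPM (2.57 ± 0.25 (SE), adjusted p = 5.13e-10), and Klf2, which keeps T cells quiescent, at 993 and 1194 CPM (1.63 ± 0.14 (SE), adjusted p = 3.48e-11). Nr4a2 and Nr4a3 were higher too, at log2 differences of 1.90 and 2.16. Hspa1a (-0.66) and Hspa1b (-0.64) were lower while Dnaja1, Dnajb1, Hsph1, Hsp90aa1 and Hspa8 were higher, so the heat shock genes did not move as 1 block.

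In macrophage-gated cells of SAT 8 members were higher (all genes: 15.7%) and 14 lower (6.02%). Those higher were Atf3, Nr4a2, Gadd45b, Ier3, Zfp36, Ier5, Nfkbia and Nfkbiz, the last 2 being inhibitors of the NF-kB family. Atf3 led with 322 and 214 CPM (1.67 ± 0.21 (SE), adjusted p = 1.73e-07). Without the cells that held 2 or more neutrophil markers, an alternative added after seeing the data, 5 members were higher and 15 lower.

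In the tumors the cancer cells had 9 members higher (all genes: 33.0%) and 20 lower (17.8%), beside a median log2 difference of 0.24 over all genes. The lower members held 18 of the 31 immediate early genes. Socs3, an inhibitor of cytokine receptor signalling, was at 6.90 and 7.17 CPM (-3.58 ± 0.24 (SE), adjusted p = 1.10e-13). Egr1 stood at 17.8 and 25.3 CPM (-2.23 ± 0.22 (SE), adjusted p = 2.52e-10), and Zfp36l1, which marks messenger RNAs for decay, at 48.7 and 56.1 CPM (-1.87 ± 0.17 (SE), adjusted p = 4.61e-11). Fos itself did not pass the test there (209 and 201 CPM, 0.19 ± 0.17 (SE), adjusted p = 0.400). The 4 immediate early genes that were higher were Jund (1.20), Gadd45g (1.04), Klf2 (0.88) and Btg2 (0.87).

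The heat shock genes of the cancer cells went in both directions. Hspb1 (2960.1 and 3161 CPM), Hsp90aa1 (1403 and 1394 CPM) and the constitutive chaperone Hspa8 (3044 and 3124 CPM) were higher, at log2 differences of 2.38, 1.49 and 1.20, as were Hsph1 and Dnajb1. Hspa1a, the inducible HSP70, was nearly missing: 15.3 and 11.9 CPM, against 1032 to 2251 CPM in the other tumor profiles (-6.53 ± 0.23 (SE), adjusted p = 2.80e-20). Its neighbour Hspa1b, which encodes nearly the same protein, was lower by much less, at 170.2 and 190.3 CPM against 414 to 669 CPM (-1.29 ± 0.16 (SE), adjusted p = 5.05e-08). After thinning each cell to 1000 nuclear UMIs, 22 of 1079 cells of the control tumor's cancer class held a Hspa1a UMI, 2.04% (1.28 to 3.07), and 7 of 581 cells of the D-CAN tumor's, 1.20% (0.486 to 2.47). In macrophage-gated cells of the same libraries the shares were 44.9% (40.2 to 49.7) and 48.2% (42.5 to 53.9). Before thinning the cancer shares were 13.3% and 17%, at medians of 11578 and 19182 UMIs per cell.

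Because the differences of these 2 genes were so unequal in 1 cell class, their start regions are shown, 250 bases before to 50 after the RefSeq start, build GRCm38.p6, minus strand, Hspa1a at chr17:34972107-34972406 and Hspa1b at chr17:34959189-34959488. Capitals mark the bases that differ. There were 4 of 300, counted from 1 at the 5′ end with Hspa1a first: C44T, T47C, T249G and C276T.
Hspa1a: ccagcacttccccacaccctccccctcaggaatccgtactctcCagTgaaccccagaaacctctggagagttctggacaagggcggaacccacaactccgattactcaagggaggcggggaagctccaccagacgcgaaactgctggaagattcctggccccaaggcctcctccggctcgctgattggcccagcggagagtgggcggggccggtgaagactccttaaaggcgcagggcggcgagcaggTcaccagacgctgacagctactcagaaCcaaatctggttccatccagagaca
Hspa1b: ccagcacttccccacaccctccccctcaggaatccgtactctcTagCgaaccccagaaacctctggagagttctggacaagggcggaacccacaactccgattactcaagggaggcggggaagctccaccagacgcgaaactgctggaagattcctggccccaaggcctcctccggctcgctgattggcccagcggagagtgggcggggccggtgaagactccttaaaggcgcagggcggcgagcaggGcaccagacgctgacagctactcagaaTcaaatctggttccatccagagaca
Both regions hold the inverted heat shock repeat GAANNTTC once. Of the 32 members with a promoter entry, 7 hold it (Dnaja1, Jun, Fosl2, Hspb1, Hsph1, Hspa1b and Hspa1a), beside 7.86% of all 32851 promoter entries. The form TTCNNGAA, searched on both strands as well, was in 2 members, Hsph1 and Egr2, and in 8.52% of all. The 2 genes share long stretches of coding sequence, so counts that fall there are uncertain between them. Their last 400 transcript bases were identical at 60.2% of positions, and 0 of the 451 runs of 50 bases at the end of Hspa1a occur in Hspa1b, so reads from the 3′ end could be told apart.

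**Figure D2:**
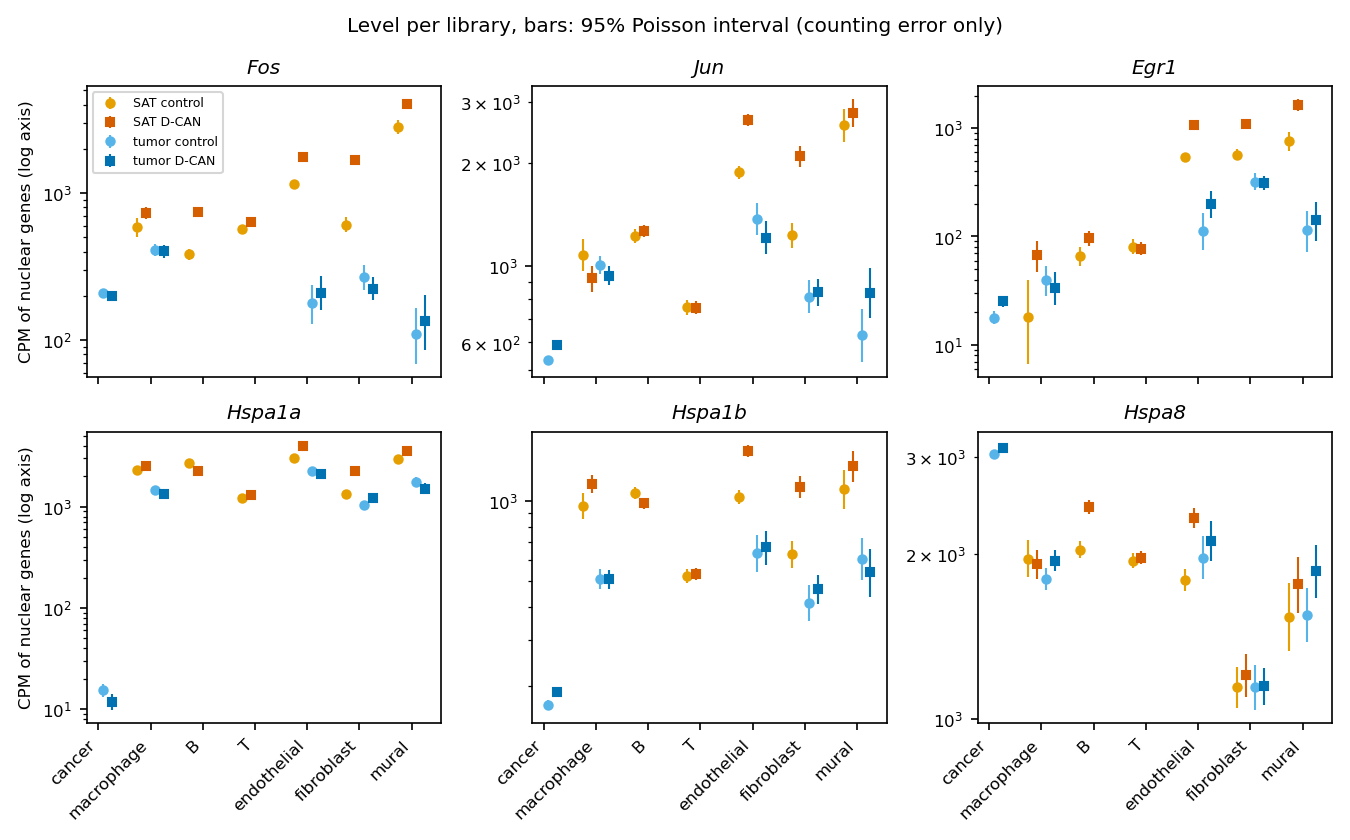
Level of Fos, Jun, Egr1, Hspa1a, Hspa1b and Hspa8 (CPM of nuclear genes, log axis) in each marker-gated class, 1 point per library with its 95% Poisson interval. Hspa1a in the cancer class lies at 15.3 and 11.9 CPM while every other profile is above 1000 CPM.

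Macrophage-gated cells had the most members called higher among the tumor classes, with 20 members higher (all genes: 18.1%) and 4 lower (10.7%). Their level was not the highest: the sum of immediate early genes with at least 20 UMIs was 69.2 and 66.9 per 10000 in them, against 76.8 and 69.1 in tumor endothelial cells. Atf3 was at 332 and 285 CPM (2.40 ± 0.21 (SE), adjusted p = 4.40e-11). Zfp36, which destabilises cytokine messenger RNAs, was at 222 and 187 CPM (1.99 ± 0.18 (SE), adjusted p = 7.27e-11), and Fos at 410.2 and 402 CPM (1.26 ± 0.17 (SE), adjusted p = 4.62e-07). The 4 lower were Hspb1, Egr1, Gadd45g and Dnajb1. Without the control library 11 members were higher and without the D-CAN library 13, with 2 and 1 lower.

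Tumor endothelial cells had 16 members higher (all genes: 12.0%) and 2 lower (5.98%). Those higher included Dusp2 (161 and 105 CPM, 3.47 ± 0.53 (SE), adjusted p = 6.27e-06), Hspa1a (2.06), Klf10 (1.93), Klf2 (1.73) and Klf4 (1.23). With either tumor library left out, 7 (without control) and 6 (without D-CAN) were higher. The Hspa1a differences of the tumor classes other than cancer rest in part on the near absence of the gene from the cancer class, which is 1 of the 4 classes in the mean they were set against.

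Tumor fibroblasts had 7 members higher (all genes: 15.7%) and 7 lower (3.99%), and tumor mural cells 3 higher (7.25%) and 9 lower (2.63%). Egr2 was at 80.8 and 28.7 CPM in fibroblasts and 34.8 and 64.4 CPM in mural cells, and at no more than 10 CPM in cancer, endothelial and macrophage-gated cells, with 0 UMIs in both endothelial profiles. Egr3 was at 22.7 and 48.4 CPM in fibroblasts and 29.8 and 41 CPM in mural cells. Egr1 was higher in the fibroblasts (321 and 312 CPM, 2.40 ± 0.20 (SE), adjusted p = 9.78e-12) and did not pass the test in mural cells (0.45 ± 0.29 (SE), adjusted p = 0.442). Mural cells were lower for Klf2 (-2.74), Btg2, an inhibitor of division (-1.97), Ier3 (-1.76) and Fos (-1.28). Fibroblast markers summed to 10234 and 16004 CPM in these mural-gated cells, against 40144 and 33998 CPM in the fibroblasts, and their part in the result was not tested. Without the control or the D-CAN tumor library, 1 and 2 members were lower in fibroblasts, and 4 and 3 in mural cells.

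The tissues were compared within each class that both held, with the 2 tumor libraries against the 2 SAT libraries. Control and D-CAN libraries thus served as replicates of a tissue. The p-values measure only the spread between those libraries, with each gene's own spread drawn toward the trend over all genes. Of the immediate early genes tested, 22 of 29 were lower in the tumors in endothelial cells (all genes: 9.71%), 17 of 27 in fibroblasts (11.6%), 18 of 29 in macrophage-gated cells (7.41%) and 22 of 25 in mural cells (18.6%). Those lower include members with few tumor UMIs: Egr3 and Nr4a2 in endothelial, Nr4a3 in macrophage-gated, and Fos, Fosb and Btg2 in mural cells. These reached the UMI limit for testing through SAT, so they could hardly have been called higher. Of 39 members 33 were tested in all 4 classes, and 13 were lower in all 4 (all genes: 1.21%): Fos, Fosb, Junb, Jund, Klf2, Klf4, Ier2, Btg2, Zfp36, Zfp36l1, Dusp1, Nfkbia and Hspa1b. The count was 5 with DESeq2, 8 with treatment as a covariate and 8 without the macrophage-gated cells that held 2 or more neutrophil markers. Without the control or without the D-CAN tumor, edgeR called 0 members lower in all 4 each time (10 and 8 at an unadjusted p under 0.05), with 23 and 22 below 0 in all 4, and DESeq2 was not run on those. In all, 33 members were lower in at least 1 class (all genes: 19.7%) and 3 higher in at least 1 (16.3%). These 2 shares are over 8239 genes tested in at least 1 class. Genes tested in fewer classes than most members had fewer chances of a call. The members called in no class were Egr2, Ier5, Rhob, Hspa8, Dnaja1 and Hsph1. The tissue, its digestion and its time to capture cannot be told apart in these libraries.

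In endothelial cells 26 of 37 members tested were lower in the tumors (all genes: 9.71%) and 1 was higher (all genes: 10.2%), with a median log2 difference of -0.97 beside -0.02 over all genes. Fos was at 178 and 211 CPM in the tumors and 1158 and 1765 CPM in SAT, a log2 difference of -2.89 ± 0.24 (SE), adjusted p = 7.06e-06. Klf4 was at 149 and 154 CPM against 795 and 1341 CPM (-2.79 ± 0.26 (SE), adjusted p = 1.67e-05), and Egr1 at 113 and 199 CPM against 542 and 1068 CPM (-2.34 ± 0.33 (SE), adjusted p = 3.18e-04). In each of these 3 genes both tumor libraries were below both SAT libraries. Jun differed less, at 1372 and 1211 CPM against 1872 and 2663 CPM (-0.79 ± 0.19 (SE), adjusted p = 0.0115). The single higher member was Dusp2, at 161 and 105 CPM against 77.8 and 74.8 CPM (0.81 ± 0.25 (SE), adjusted p = 0.0401), and 6 of 11 alternatives ended that call. Egr3 and Nr4a2 had the lowest fitted values, but they rested on 0 and 1 UMIs of Egr3 and 1 and 3 of Nr4a2 in the tumor profiles.

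In mural cells 24 of 33 members tested were lower (all genes: 18.6%) and 0 higher (all genes: 16.3%; also 0 in edgeR at an unadjusted p under 0.05 and 0 called by DESeq2). Here the sizes were the largest of the 4 classes for Fos, Fosb and Btg2. Fos fell from 2821 and 4030.5 CPM in SAT to 109 and 135 CPM in the tumors (-4.86 ± 0.32 (SE), adjusted p = 9.29e-06). Fosb, another Fos family gene, went from 873 and 1248 CPM to 34.8 and 35.1 CPM (-4.95 ± 0.34 (SE), adjusted p = 9.29e-06), and Btg2 from 1066 and 1119 CPM to 69.6 and 76.1 CPM (-3.95 ± 0.28 (SE), adjusted p = 9.89e-06). All 7 AP-1 and ATF3 genes, the 4 EGR and KLF genes tested and the 6 feedback inhibitors tested were among the lower. The tumor mural profiles held 49 and 25 cells, with 201100 and 170831 nuclear UMIs. Fos, Fosb and Btg2 thus had few UMIs there and reached the UMI limit for testing through their SAT counts. Fibroblast markers summed to 1654 and 1419 CPM in the SAT mural profiles, lower than the tumor side given above, and mural markers to 13466 and 14195 CPM in the tumors and 17580.5 and 26703 CPM in SAT, and the part of these markers in the result was not tested.

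In fibroblasts 18 of 35 members tested were lower (all genes: 11.6%) and 0 higher (all genes: 10.1%; DESeq2 called 0, and at an unadjusted p under 0.05 there were 2 in edgeR, Egr2 and Hspb1). Klf4 led with 98.4 and 71.7 CPM against 655 and 1114 CPM (-3.54 ± 0.33 (SE), adjusted p = 4.23e-04). Dusp1, a phosphatase that turns MAP kinases off, was at 134 and 109 CPM against 440.1 and 1131 CPM (-2.85 ± 0.44 (SE), adjusted p = 0.00353), and Fos at 268 and 224 CPM against 609 and 1687 CPM (-2.38 ± 0.44 (SE), adjusted p = 0.00789). The SAT libraries differed from each other by over 2-fold for Dusp1 and Fos, and both were above both tumor libraries. The count fell to 9 without the control tumor and 3 without the D-CAN tumor, where 1 tumor library stood against 2 of SAT. Mural markers summed to 5772 and 6951 CPM in the tumor fibroblasts against 295 and 187 CPM in those of SAT, and their part in the result was not tested.

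In macrophage-gated cells 21 of 37 members tested were lower (all genes: 7.41%) and 2 higher (5.86%). All 3 NR4A receptors were called lower, with Nr4a1 at 65.8 and 55.6 CPM against 181 and 288 CPM (-2.06 ± 0.28 (SE), adjusted p = 0.00241). Nr4a3 was at 2.74 and 2.88 CPM against 60.3 and 51 CPM, on 3 UMIs in each tumor profile. Nr4a3 reached the UMI limit for testing through its SAT counts, so its call could hardly have gone the other way. Nfkbia, the inhibitor of NF-kB, was at 277 and 302 CPM against 940.1 and 1086 CPM (-1.89 ± 0.21 (SE), adjusted p = 9.18e-04). Fos was lower by a smaller margin than in the vessel and stromal classes, at 410.2 and 402 CPM against 585 and 735 CPM (-0.79 ± 0.21 (SE), adjusted p = 0.0435), and Jun did not pass the test (-0.12 ± 0.20 (SE), adjusted p = 0.721). Without the cells holding 2 or more neutrophil markers 14 members were lower. DESeq2 called 13, and leaving out the control or the D-CAN tumor left 5 and 6.

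**Figure D3:**
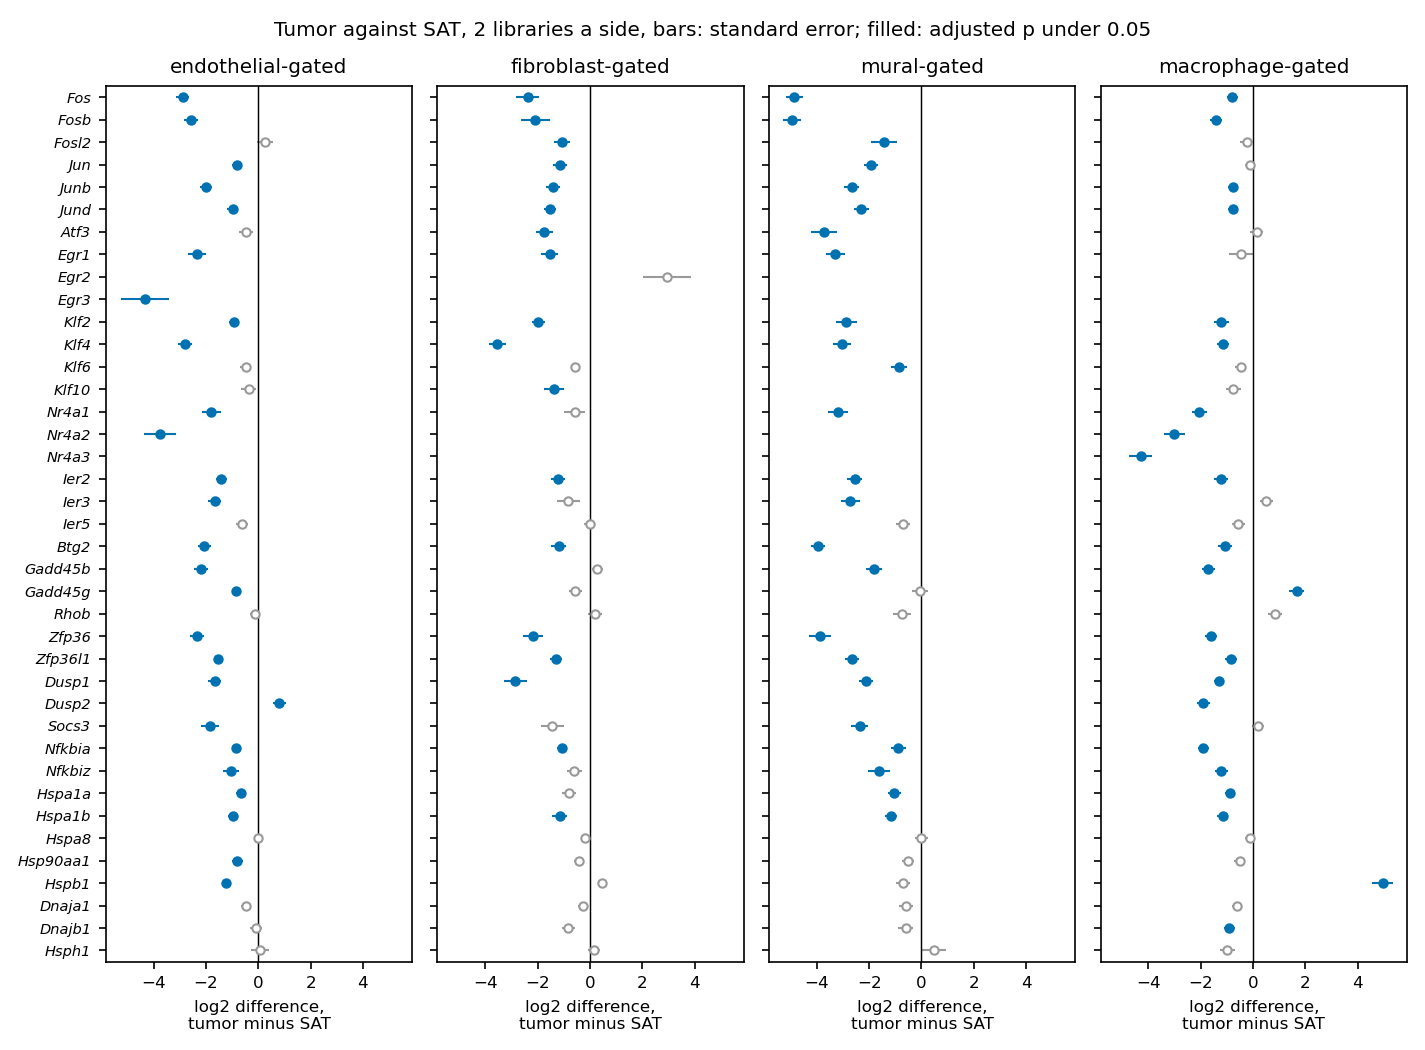
Log2 difference of each member, tumor minus SAT, in 4 marker-gated classes, with standard errors and filled points for an adjusted p under 0.05 (2 libraries a side). Most points lie left of 0, and Hspb1 in macrophage-gated cells lies farthest to the right.

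The heat shock genes were divided in the tissue difference, and Hspa8, Dnaja1 and Hsph1 were called in no class. Hsp90aa1 was called lower in endothelial cells only (-0.80 ± 0.21 (SE), adjusted p = 0.0160, all genes: 9.71% lower). Dnajb1 was called lower in macrophage-gated cells only (-0.90 ± 0.21 (SE), adjusted p = 0.0246, all genes: 7.41% lower). Hspa1b was lower in the tumors in all 4 classes, by log2 differences from -1.16 to -0.97, and Hspa1a in 3, at -0.68, -0.88 and -1.04 in endothelial, macrophage-gated and mural cells, with -0.81 ± 0.27 (SE), adjusted p = 0.0693 in fibroblasts. Hspa8 stood within 0.178 of 0 in every class, at 1969 and 2109.7 CPM against 1794 and 2325 CPM in endothelial cells. Hspb1 was the only heat shock gene higher in a tumor class, at 513 and 311 CPM against 15.1 and 10.5 CPM in macrophage-gated cells (4.96 ± 0.39 (SE), adjusted p = 2.89e-04), and it was lower in endothelial cells (-1.22 ± 0.17 (SE), adjusted p = 2.62e-04). Cancer markers summed to 323 and 215 CPM in the tumor macrophage-gated profiles against 102 and 142 CPM in SAT, and to 3582 and 3505 CPM in the cancer cells, where Hspb1 was at 2960.1 and 3161 CPM. Their part in the result was not tested. Gadd45g, which was at 643 and 685 CPM in the cancer cells, was the other higher member, at 291 and 298 CPM against 121 and 61.5 CPM (1.67 ± 0.29 (SE), adjusted p = 0.00769).

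Zfp36 and Dusp1 were lower in the tumors in all 4 classes, with log2 differences from -3.87 to -1.61 and from -2.85 to -1.30, and both undo the signals that induce them. Their start regions are shown since they hold, in capitals, letters that serum response factor and CREB, regulators of immediate early genes, are known to bind. They are RefSeq entries of build GRCm38.p6, minus strand, Zfp36 at chr7:28379179-28379478 with a CArG box and Dusp1 at chr17:26508423-26508722 with the cyclic AMP response element TGACGTCA.
Zfp36: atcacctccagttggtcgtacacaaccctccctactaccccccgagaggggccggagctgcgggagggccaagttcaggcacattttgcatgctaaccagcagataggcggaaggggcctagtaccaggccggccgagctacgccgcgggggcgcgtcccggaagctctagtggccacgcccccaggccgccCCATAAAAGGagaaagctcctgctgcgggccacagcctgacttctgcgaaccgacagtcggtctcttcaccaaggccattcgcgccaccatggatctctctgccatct
Dusp1: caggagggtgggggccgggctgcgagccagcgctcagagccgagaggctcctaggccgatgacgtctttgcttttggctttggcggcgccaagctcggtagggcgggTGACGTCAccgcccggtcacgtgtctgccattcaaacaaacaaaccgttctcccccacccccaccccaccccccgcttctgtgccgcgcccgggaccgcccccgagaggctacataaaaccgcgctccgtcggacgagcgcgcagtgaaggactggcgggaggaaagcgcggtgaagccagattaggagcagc
The CArG box was in 2 of 32 members (Zfp36 and Egr2) and 1.63% of all promoter entries, and the response element in 2 (Btg2 and Dusp1) and 1.79%. The AP-1 letters TGANTCA were in 1 (Zfp36l1) and 7.81%, and TATAAA in 7 and 13.6%, all on both strands. Such matches are letters only.

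The difference between the tissues was then compared between cell types in a model chosen after seeing the data, as the mean over endothelial, fibroblast and mural cells minus that in macrophage-gated cells. Of the 39 members 15 passed (all genes: 4.92%), 13 with a more negative tumor minus SAT difference in the vessel and stromal classes, beside a median of -0.12 over all genes. Among them were Fos (-2.52 ± 0.30 (SE), adjusted p = 5.68e-05), Ier3 (-2.20 ± 0.41 (SE), adjusted p = 0.00313), Atf3 (-2.12 ± 0.37 (SE), adjusted p = 0.00197) and Egr1 (-2.05 ± 0.36 (SE), adjusted p = 0.00202). The 2 with the opposite sign were Hsph1 (1.27) and Nfkbia (0.98). This model was run in the main setting only, with macrophage-gated cells that held neutrophil markers kept. Those markers summed to 12843 and 21689 CPM in SAT and 2341 and 614 CPM in the tumors, and their part in the result was not tested.

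Shares of cells followed the levels for Fos. After thinning to 1000 nuclear UMIs, a Fos UMI was seen in 52.8% (46.4 to 59) of control SAT endothelial cells and 12.2% (5.71 to 21.8) of those of the control tumor. In the D-CAN libraries the shares were 60.1% (51.6 to 68.2) and 20% (10 to 33.7). In macrophage-gated cells they were 33.8% (22.8 to 46.3) and 25.7% (21.6 to 30.1) in the controls, and the gap of 8.13 percentage points (-3.75 to 21.3) was not detectable at this depth. In the D-CAN libraries they were 38.8% (28.1 to 50.3) and 24.6% (19.9 to 29.8), a gap of 14.2 percentage points (2.27 to 26.6) whose interval leaves out 0. Unthinned, the shares in the control libraries were 59.6% and 24.4% in endothelial and 61.9% and 33.4% in macrophage-gated cells. The lowest share was 2.44% (0.0617 to 12.9) in mural cells of the control tumor, on 1 of 41 cells.

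Other genes of the same pathways, from lists chosen by name with earlier results of these data known, were counted in the same fits. Over all genes 9.71% were lower and 10.2% higher in endothelial cells, 11.6% and 10.1% in fibroblasts, 7.41% and 5.86% in macrophage-gated cells, and 18.6% and 16.3% in mural cells. Of other primary response genes, 12 of 24 tested were lower and 2 higher in endothelial cells, 3 of 15 and 2 in fibroblasts, 6 of 21 and 2 in macrophage-gated cells, and 8 of 12 and 1 in mural cells. Csrnp1 (-2.02), Cebpb (-1.72) and Irf1 (-1.64) were the lowest of those called in endothelial cells, and Id1, a target of BMP signals, in mural cells (-6.07 ± 0.57 (SE), adjusted p = 4.04e-05). Ctgf was higher in the tumors in endothelial (1.65), fibroblast (4.83) and mural cells (3.43). Of other chaperones and heat shock factor targets, the lower and higher counts were 2 and 2 of 20 in endothelial cells, 4 and 2 of 19 in fibroblasts, 1 and 0 of 18 in macrophage-gated cells, and 2 and 2 of 13 in mural cells. Beside the shares over all genes, these few chaperone calls are not read as a result about the list. Serpinh1, the collagen chaperone, was higher in 3 classes, by 1.79, 0.66 and 2.33 in endothelial, fibroblast and mural cells.

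Within the 4 libraries, D-CAN and control were compared as 1 library against 1, so the values have no replicate check and no test. Changes of 2-fold or more among genes with at least 20 UMIs are counted, with ratios (D-CAN over control) and their exact 95% counting intervals. Few members of the tumor classes were past it. In cancer cells 0 of 36 counted members differed by 2-fold (all genes: 1.63%), and the immediate early sum had a ratio of 1.08 (1.06 to 1.09). In macrophage-gated cells the 1 member past 2-fold was Nr4a2 (all genes: 3.80%), at a ratio of 2.62 (1.11 to 6.89), and the sum was at 0.967 (0.936 to 0.999). Endothelial (7.16% of all genes) and mural cells (6.65%) had 0 members past 2-fold, with sums at 0.900 (0.843 to 0.960) and 1.17 (1.05 to 1.29). Fibroblast markers summed to 113 and 1128 CPM in the control and D-CAN endothelial profiles and mural markers to 157 and 1098 CPM, and their part in that ratio was not tested. In fibroblasts 3 members were past 2-fold (all genes: 5.38%): Fosb at 0.282 (0.161 to 0.475), Egr2 at 0.355 (0.182 to 0.667) and Egr3 at 2.13 (0.973 to 5.15).

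In SAT the D-CAN library had the higher immediate early sum in every class. Endothelial cells showed it across the list: 30 of 31 immediate early genes were above the control, with a median log2 ratio of 0.61 beside 0.02 over all genes, and the sum was 232 against 156 per 10000 UMIs, a ratio of 1.49 (1.46 to 1.52). Only Nr4a3 was past 2-fold there (all genes: 4.14%), at 2.51 (1.30 to 5.09). All 8 heat shock genes were above the control as well, with a summed ratio of 1.28 (1.25 to 1.31). In these control and D-CAN profiles mural markers summed to 870 and 410 CPM, B cell markers to 108 and 5.34 CPM, T cell markers to 120 and 36.3 CPM and neutrophil markers to 2.92 and 166 CPM. The part of these markers in the ratios was not tested.

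Fibroblasts of SAT had the highest ratio of sums, 1.65 (1.58 to 1.71). There 8 immediate early genes were past 2-fold (all genes: 10.7%). Socs3 had a ratio of 2.81 (2.11 to 3.77), Ier3 of 2.77 (1.95 to 4.0), Fos of 2.77 (2.40 to 3.20), Dusp1 of 2.57 (2.17 to 3.05) and Fosb of 2.27 (1.75 to 2.97), and Nr4a1 and Zfp36 were also higher. Dusp2 went the other way, with 40 UMIs in the control and 0 in the D-CAN library, at least 11.3-fold lower against a floor of 3 counts in the library. B and T cell markers summed to 234 and 5.12 CPM and 273 and 17.9 CPM in these fibroblast profiles, and Dusp2 was at 562 and 627 CPM in B cells. Their part in the Dusp2 value was not tested.

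Mural cells of SAT had a ratio of 1.37 (1.31 to 1.45). The median log2 ratio of their immediate early genes was 0.47, beside 0.15 over all genes, of which 59.8% were above 0. Of 33 counted members 4 were past 2-fold, near the share over all genes (12.1%), so the count is not read as a result about the members. They were Fosl2 at 3.17 (1.66 to 6.55), Zfp36 at 2.31 (1.71 to 3.15), Egr1 at 2.16 (1.71 to 2.76) and Hsph1 at 2.53 (0.887 to 8.84), an interval that includes 1. Endothelial markers summed to 2048 and 453 CPM and mural markers to 17580.5 and 26703 CPM in these control and D-CAN profiles. In B cells the sum was at 1.30 (1.28 to 1.33) and 4 members were past 2-fold (all genes: 3.78%), Nr4a2, Fosb, Ier3 and, in the other direction, Hspb1. Fosb stood at 415 and 847 CPM there, a ratio of 2.04 (1.86 to 2.25). Plasma cell markers summed to 817 and 2116 CPM in the B profiles. The part of these markers in the mural and B cell values was not tested. T cells were closest to 1 at 1.07 (1.05 to 1.09), with 0 of 39 members past 2-fold (all genes: 3.15%). Macrophage-gated cells were at 1.11 (1.06 to 1.15), with Egr1 the 1 member past 2-fold (all genes: 13.6%), on 6 and 38 UMIs. In these control and D-CAN profiles macrophage markers summed to 25064 and 10371 CPM and neutrophil markers to 12843 and 21689 CPM, and their part in the ratio was not tested.

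Depth moved with treatment in SAT. The median cell of the endothelial class had 1156 and 4356 UMIs in the control and D-CAN libraries, that of the fibroblasts 937 and 5683 and that of the mural cells 1226 and 4610. In T cells, whose sums were the closest of the SAT classes, the medians were 2817 and 3546. The medians of macrophage-gated cells were 1399 and 4884 beside a ratio of 1.11, and those of B cells 2009 and 2607 beside 1.30. With each cell thinned to 1000 nuclear UMIs, which kept 254 of 465 in the control library and 143 of 163 in the D-CAN library in the endothelial class, the median cell held 14 and 20 immediate early UMIs. In fibroblasts, with 113 of 261 in the control library and 65 of 72 in the D-CAN library kept, the medians were 8.0 and 11. Thinning kept a smaller share of the control cells in both classes, so the cells compared were selected by depth unequally. The part of depth in the ratios was not tested, and the treatment, the library and the mice cannot be told apart.

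**Figure D4:**
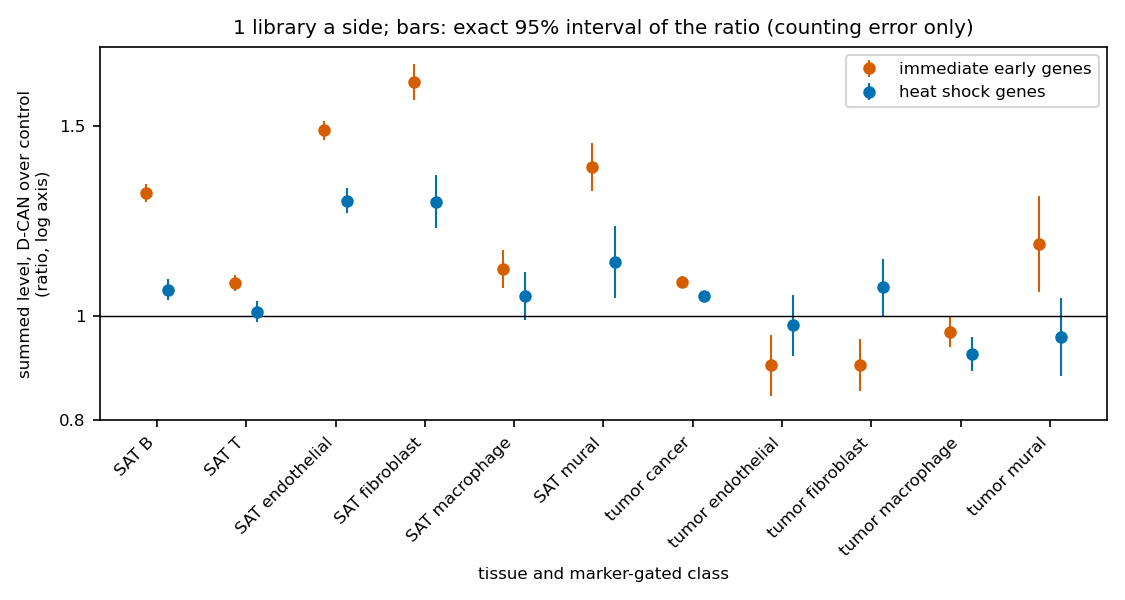
Ratio of the summed level of the 31 immediate early genes and of the 8 heat shock genes, D-CAN over control (log axis), in each tissue and marker-gated class, 1 library a side, with exact 95% counting intervals. SAT fibroblasts and endothelial cells lie highest, at 1.65 and 1.49 for immediate early genes, and tumor endothelial cells and fibroblasts lowest, both near 0.90.

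The share of a cell's UMIs from the 13 mitochondrial genes is often taken as a sign of damage, and the levels were summed by it. Over all kept cells of the control tumor the sum went 54.5, 38.5, 37.9, 54.9 and 41.5 per 10000 nuclear UMIs across cells with under 5%, 5 to 10%, 10 to 20%, 20 to 50% and over 50% mitochondrial UMIs. The D-CAN tumor gave 52.8, 42.4, 36.9, 53.2 and 42.3. Neither tumor library moved in 1 direction, and the level at 20 to 50% was above that at 5 to 10% by a ratio of 1.43 (1.39 to 1.47) and 1.26 (1.21 to 1.30). Taken over all UMIs, mitochondrial ones included, the ratio was 1.07 in the control tumor and 0.934 in the D-CAN tumor, where the direction turned. In SAT the same ratio was 0.884 (0.828 to 0.943) in the control and 0.870 (0.829 to 0.913) in the D-CAN library. Every stratum of SAT was above every stratum of the tumors.

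Over all kept cells, heat shock genes were lower at 20 to 50% than at 5 to 10% mitochondrial UMIs in all 4 libraries. Their ratio of 20 to 50% over 5 to 10% was 0.872 (0.851 to 0.892) and 0.833 (0.807 to 0.859) in the tumors and 0.741 (0.680 to 0.807) and 0.825 (0.773 to 0.880) in SAT. Classes are not spread evenly over the strata. In the control and D-CAN tumors 795 and 345 kept cells fell in no class. Their median mitochondrial percent was 26.2 and 29.1, against 6.86 and 5.94 in gated cells. The cancer class was also taken alone, which leaves those ungated cells out. The immediate early sum of the cancer class went 44.3, 37.7, 37.3 and 58.3 over the first 4 strata of the control tumor and 48.5, 41.9, 36 and 54.9 of the D-CAN tumor. Cell by cell, Spearman's rho between mitochondrial percent and the immediate early share was 0.12 and 0.07 in the cancer class (Pearson's r 0.20 and 0.13, 1094 and 582 cells). Over all cells of the 2 tumor libraries it was -0.13 and -0.11 (-0.09 and -0.08, 2761 and 1487 cells), and in tumor macrophage-gated cells -0.19 and -0.06 (-0.12 and -0.05, 611 and 379 cells). In SAT endothelial cells it was -0.27 and -0.31 (-0.25 and -0.28, 465 and 163 cells). In mural cells of the control SAT library it was -0.26 (-0.32, 81 cells). Other SAT classes gave 0.04 and 0.02 (B cells), -0.03 and -0.16 (T cells), -0.07 and -0.05 (fibroblasts) and 0.13 and -0.30 (macrophage-gated cells). For the heat shock share, rho was 0.11 and 0.26 in SAT macrophage-gated cells (Pearson's r -0.003 and -0.04). It was below 0 in the B, T, endothelial and fibroblast classes of SAT, and in mural cells of the control SAT library (-0.13). Cells of 1 library share its preparation and the sparse counts weaken such values, which are given as a description.

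**Figure D5:**
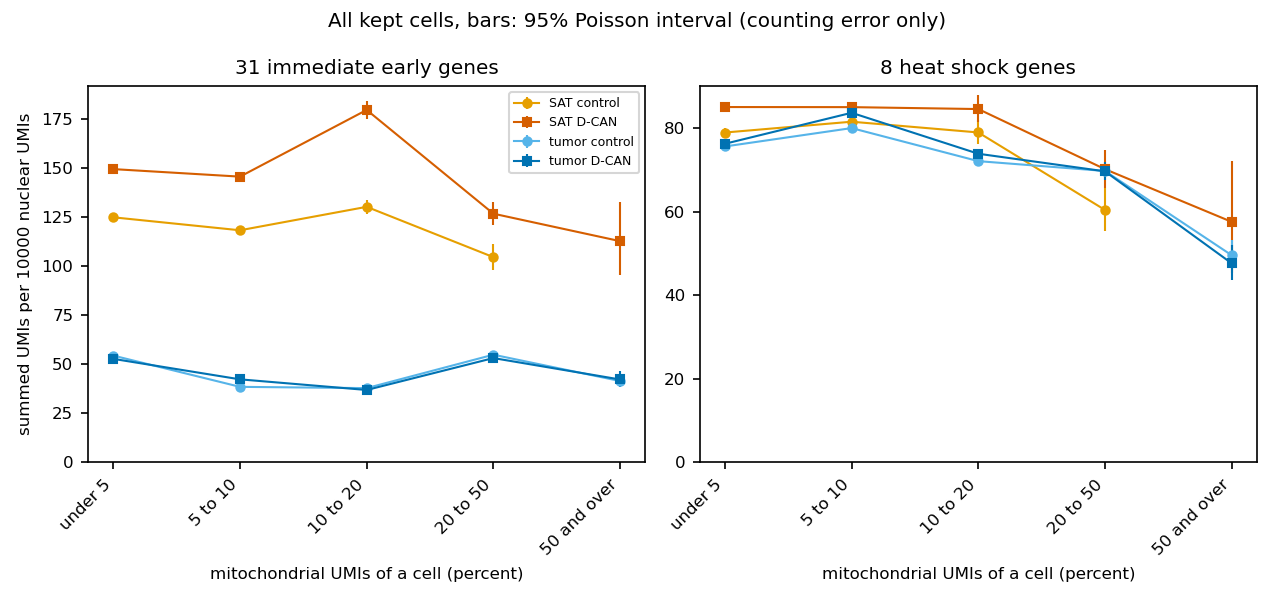
Summed UMIs per 10000 nuclear UMIs of the 31 immediate early genes (left) and 8 heat shock genes (right) against the mitochondrial percent of the cell, 1 line per library, with 95% Poisson intervals. In the left panel the lowest SAT point is at 105 and the highest tumor point at 54.9, and in the right panel the 20 to 50% points lie below the 5 to 10% points in all 4 libraries.

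Across the 22 library and class profiles, the members whose log2 level was most like that of Fos were Fosb (r = 0.89, rho = 0.91), Zfp36 (0.84, 0.84), Junb (0.83, 0.84), Jun (0.82, 0.69) and Zfp36l1 (0.80, 0.84). The least like were Hsph1 (-0.19, -0.12), Hspa8 (-0.14, -0.19) and Hspb1 (-0.07, -0.16). Hspa1b (0.70, 0.69) was more like Fos than Hspa1a (0.44, 0.60). The profiles share 4 libraries and the tissue difference, so these values are a description.

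Within single profiles of a library and class, cells with and without a Fos UMI were compared after thinning to 1000 UMIs. Jun was seen in the larger share of cells with a Fos UMI in 14 of 14 profiles, and the 2 intervals did not overlap in 5 of them. For Junb this was 14 of 14 profiles (7 apart), for Atf3 13 of 14 (4 apart), for Hspa8 13 of 14 (2 apart) and for Hspa1a 7 of 14 (1 apart). In control SAT endothelial cells Jun was seen in 88.1% (81.3 to 93) of the cells with a Fos UMI and 60.8% (51.5 to 69.6) of those without. Hspa1a, in the same cells, was seen in 88.1% (81.3 to 93) of the cells with a Fos UMI and 64.2% (54.9 to 72.7) of those without. Atf3 was seen in 22.4% (15.6 to 30.4) of the cells with a Fos UMI and 6.67% (2.92 to 12.7) of those without. Hspa8, the constitutive chaperone, was at 89.6% (83.1 to 94.2) of the cells with a Fos UMI and 76.7% (68.1 to 83.9) of those without, 2 shares whose intervals overlap. In cancer cells of the control tumor Jun was seen in 51.7% (44 to 59.4) of the cells with a Fos UMI and 33.1% (30 to 36.2) of those without. T cells of the control SAT gave 44.5% (37.8 to 51.4) of the cells with a Fos UMI and 46% (40.9 to 51.1) of those without for Hspa1a, whose intervals overlap too. These are shares of cells of 1 library each.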

How the data were processed

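Cells of 4 groups, with 1 library each (tumor control, tumor D-CAN, SAT control and SAT D-CAN), had been captured with 10x 3′ reagents (v3). The deposited matrices hold raw UMI counts per gene and cell that the authors made with Cell Ranger 3.1.0 (3.0.2 in the file header of SAT D-CAN) and STAR 2.6 on mm10, after calling cells, and no cell annotation or doublet calls were used here. The library whose header names another Cell Ranger version is also 1 of the 4 groups, so version and group cannot be told apart there. Minimum UMIs per cell were 500 to 502.

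Cells with at least 200 genes were gated by markers into classes (at least 3 own markers, other classes at most 0.75 of their own share), with thresholds set after looking at how cells scored, and doublets were not called beyond that gate. UMIs were summed per library and class with at least 20 cells. Genes with at least 50 UMIs were tested with edgeR 4.0.16 (R 4.3.3, quasi-likelihood, TMM), with Benjamini-Hochberg adjusted p under 0.05, over residual degrees of freedom of 9 (classes), 2 (tissues) and 6 (tissue by class). The quasi-likelihood test also draws the spread of each gene toward the trend over all genes, so small p-values rest in part on that shared spread. CPM leaves out the 13 mitochondrial genes. D-CAN and control had 1 library a side, so their ratios carry exact Poisson intervals and no test. Shares were taken after thinning cells to 1000 nuclear UMIs, with Clopper-Pearson 95% intervals. Promoters came from RefSeq (GRCm38.p6), with 32 of 39 members matched. Python 3.11.15, scanpy 1.11.5, scipy 1.17.1 and matplotlib 3.10.9 were used.

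The members and lists were chosen with earlier results of these data known. All 39 members could be named; Fos, Jun, Egr1, Hspa1a, Hspa1b, Hspa8 and up to 5 members a direction by size were preferred, with up to 3 other pathway genes. Genes resting on a few UMIs are given by their levels. The tests were tested on simulated data: of 100 genes changed 2-fold, 91 were recovered for SAT endothelial cells against the other SAT classes (12767 genes), 33 for endothelial cells between tissues (6364 genes) and 36 for mural cells (2178 genes). False calls were 9.05% of calls in the first and 4.69% and 4.65% in the others. The changed genes were drawn from those with a minimum of expected UMIs in the smallest profile, so these figures do not cover sparse members. The simulated profiles held no other class or tissue difference and no effect shared within a library, unlike the real ones. Alternatives were DESeq2 1.42.0, RLE scaling, no count filter, a mitochondrial limit of 10%, 1 more marker, classes from clusters, treatment as a covariate, other denominators and thinning, each library left out and, added after seeing the data, macrophage-gated cells without 2 or more neutrophil markers.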

Additional observations from a re-analysis of the deposited data

Results flagged for a closer look

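The ratio of summed immediate early genes with at least 20 UMIs, D-CAN over control, lay on opposite sides of 1 in the tissues for 3 classes, with 1 library behind each level. It was 0.967 in tumor and 1.11 in SAT macrophage-gated cells, 0.900 and 1.49 in endothelial cells, and 0.901 and 1.65 in fibroblasts. The difference between the tissues was not tested. From control to D-CAN, macrophage markers went from 25064 to 10371 CPM and neutrophil markers from 12843 to 21689 CPM in SAT macrophage-gated profiles. In SAT endothelial profiles mural markers went from 870 to 410 CPM, B cell markers from 108 to 5.34 CPM and neutrophil markers from 2.92 to 166 CPM. The part of these markers in the SAT ratios was not tested. In the control and D-CAN tumor endothelial profiles fibroblast markers summed to 113 and 1128 CPM and mural markers to 157 and 1098 CPM, and their part in the tumor endothelial ratio was not tested.

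The tumor minus SAT difference itself differed between cell types for 15 members by the test of that difference (edgeR, adjusted p under 0.05, all genes: 4.92%). As the log2 difference in endothelial, fibroblast and mural cells minus that in macrophage-gated cells, it was -5.39 for Hspb1, -2.52 for Fos, -2.20 for Ier3, -2.12 for Gadd45g, -2.12 for Atf3 and -2.05 for Egr1. It was -2.02 for Socs3, -1.92 for Klf4, -1.78 for Fosb, -1.31 for Btg2, -1.19 for Junb, -1.13 for Zfp36 and -1.11 for Jun. It was above 0 for Nfkbia (0.98) and Hsph1 (1.27). The test was run in the main setting only, with macrophage-gated cells that held neutrophil markers kept, and the part of those markers was not tested. Cancer markers summed to 323 and 215 CPM in the tumor macrophage-gated profiles against 102 and 142 CPM in SAT. Their part in the Hspb1 and Gadd45g values was not tested.

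T-gated cells of the tumors were too few for any comparison. In them immediate early genes took 48.5 per 10000 nuclear UMIs in 11 cells of the control library and 62.4 in 19 cells of the D-CAN library, above the limit that a count of 0 allows.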

How the results depend on the processing

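Replicate numbers could pair no libraries, because each group held 1, so tumor and SAT libraries could be matched by treatment only. Treatment as a covariate, which sets tumor against SAT within a treatment, kept 85 of 92 calls and turned 0. The fits between classes already compared the classes within libraries. Of the called members, DESeq2 kept 306 of 347 calls and turned 0, RLE scaling kept 342 of 348, and leaving out the D-CAN or the control tumor kept 254 and 265 of 347. The median log2 difference over all genes in cancer cells was 0.24 in edgeR and -0.01 in DESeq2. In the settings below the cause was not tested, and with a library left out fewer samples remain and a lone library is assumed to vary like the other side.

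Members lower in the tumors in all 4 classes were 13, but 5 with DESeq2, 8 with treatment as a covariate and 8 with macrophage-gated cells lacking 2 neutrophil markers, and those higher in at least 1 class were 3, but 5 without the count filter, at most 10% mitochondrial UMIs or with classes from clusters. With DESeq2, 13 members were lower in tumor macrophage-gated cells (21 in edgeR) and 0 higher in tumor endothelial cells (1 in edgeR). Without the count filter 0 were higher in tumor endothelial cells, 2 in tumor fibroblasts (0 with it), and 4 members were lower in tumor endothelial cells against other classes (2 with it). With at most 10% mitochondrial UMIs, with 1 marker more or with treatment as a covariate, 1 member was higher in tumor fibroblasts each time. With 1 marker more, and with macrophage-gated cells lacking 2 neutrophil markers, 5 members were higher in SAT macrophage-gated cells (8 otherwise). With classes from clusters, tumor mural cells had 5 members higher and 5 lower (3 and 9 from the gate), 0 members were higher in tumor endothelial cells, 1 in fibroblasts and 4 in macrophage-gated cells, and Egr3 in SAT macrophages (0.047), Fosl2 in cancer cells (0.12) and Klf10 in cancer cells (0.57) changed sign.

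The log2 ratio of immediate early sums, D-CAN over control, moved in cancer cells from 0.10 to 0.16 at 10% mitochondrial UMIs and 0.23 with 1 marker more, and at 10% in SAT macrophage-gated cells from 0.14 to 0.24 and in SAT mural cells from 0.46 to 0.34. Over all UMIs, the ratio of 20 to 50% over 5 to 10% mitochondrial cells was 1.07 for immediate early genes in the control tumor, 0.934 in the D-CAN tumor, where it changed side, and 0.669 and 0.641 in SAT. For heat shock genes it was 0.653, 0.619, 0.560 and 0.608 in the same order. With at least 1000 nuclear UMIs it was 0.802 for immediate early genes in SAT D-CAN. Without thinning, the Fos gap between SAT and tumor macrophage-gated cells of the controls was 28.6 percentage points (8.13 thinned).

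Leaving out 1 library at a time gave 5 to 9 members higher in SAT fibroblasts (5 without SAT D-CAN), 6 to 7 higher and 1 to 2 lower in tumor endothelial cells, 1 to 2 lower in tumor fibroblasts, 11 to 13 higher and 1 to 2 lower in tumor macrophage-gated cells, and 3 to 4 lower in tumor mural cells, each against the other classes. Between tissues, 0 to 17 were lower in all 4 classes (0 without either tumor library), 26 to 35 lower and 1 to 5 higher in at least 1 class, 0 to 1 were higher in endothelial cells, 0 to 1 in fibroblasts and 1 to 4 in macrophage-gated cells, and 3 to 25 were lower in fibroblasts and 5 to 25 in macrophage-gated cells. Dusp2 in SAT endothelial cells ran from -1.41 to 1.01 (1.01 without SAT control), and Ier3 and Dusp1 in SAT fibroblasts from -0.035 to 1.24 and from -0.018 to 1.14 (the lowest without SAT D-CAN). Counting depth limits Egr2, Egr3, Nr4a2, Nr4a3 and Dusp2 in most tumor profiles.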

Other observations

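UMIs of some members were gathered in few cells of a class. In cancer cells of the control and D-CAN tumors, the 10% of cells with the most UMIs of a gene held 54.8% and 61.3% of those of Fos, 88.4% and 83.3% of Egr1 and 79.8% and 66.9% of Hspa1a, against 25.2% and 25.3% of Hspa8. In SAT endothelial cells the same shares were 53.6% and 45.1% for Fos and 44.8% and 35.5% for Hspa8. A gene with few UMIs per cell gives a high share by counting alone, so these are descriptions of the libraries. In the cancer class the median cell, thinned to 1000 nuclear UMIs, held 4.0 and 3.0 immediate early UMIs and the 10% of cells with the most held at least 9.0 and 10, while in SAT endothelial cells the medians were 14 and 20 and the 10% with the most held at least 30 and 34.8.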
